A study of Mus musculus with 56 samples.

Results

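RNA polymerase II phosphorylated on serine 5 of its C-terminal repeats (RNAPII-pS5) was mapped by chromatin immunoprecipitation sequencing (ChIP-seq) in mouse bone marrow-derived macrophages (BMDMs) after 24 hr of IL-4 with no later stimulus, and compared with BMDMs that received neither IL-4 nor LPS. These are 4 of the 56 samples of the series, and they were chosen by their labels alone: the RNAPII-pS5 samples of the pretreatment experiment labelled ctrl_ctrl (replicates 1 and 2, here the controls) and 24hIL4_ctrl (replicates 1 and 2, here the 24 hr IL-4 samples). All their peaks are considered, 83596 of the 1610519 peaks listed in the series, which merged into 30864 regions and fell on 11020 genes. All 4 samples came from Wt mice of 8 to 12 weeks, whose bone marrow cells were grown for 6 days in L929 cell supernatant as a source of MCSF, and IL-4 was given at 20 ng/ml. The study describes replicates as independent biological ones. BMDMs are a cultured model of macrophages.

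Serine 5 of the polymerase tail is phosphorylated as transcription starts, so RNAPII-pS5 marks polymerase that has initiated, mostly at promoters, at active enhancers and over the first part of transcribed genes, whereas serine 2 phosphorylation (RNAPII-pS2) accompanies productive elongation. IL-4 binds its receptor, activates the kinases JAK1 and JAK3 and the transcription factor STAT6, and turns macrophages towards alternative activation, a state marked by Arg1, Retnla, Chil3 and Mrc1 and seen in helminth infection, tissue repair and allergy. IL-4 pretreatment is also known to change how macrophages later respond to LPS. The comparison asks which promoters, gene bodies and distal regions carry altered RNAPII-pS5 at the end of that pretreatment, before LPS is added.

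Some regions that changed are shown here by sequence, together with stretches upstream of Retnla and Chil3. Most changed regions lie outside promoters, and their identity is not given by a gene name. The peaks were annotated on mm10, and the letters are those of RefSeq's GRCm38.p6, the same build, read on the plus strand unless stated. Each is a window of 200 bases at the middle of a region's highest peak, except a stretch of 30 bases upstream of Retnla and the 250 bases before the start of Chil3. These Retnla and Chil3 stretches lie outside the RNAPII-pS5 regions of their genes. Capitals mark matches on either strand to the STAT6 motif (TTC and GAA with 4 free bases between), the shorter STAT motif (the same with 3), TTGCNNAA (C/EBP) and the NF-kB motif (GGG and CC with 5 free bases between). The motifs may overlap one another. The first 5 come from loci with peaks only in the 24 hr IL-4 samples, the next from a distal region that rose from a low level, and the last pair from regions that fell or were lost.
Retnla, chr16:48842460-48842489: ataaTTCACAAGAAaTTGCTAAAcagtaca
Chil3, chr3:106167565-106167814, minus strand: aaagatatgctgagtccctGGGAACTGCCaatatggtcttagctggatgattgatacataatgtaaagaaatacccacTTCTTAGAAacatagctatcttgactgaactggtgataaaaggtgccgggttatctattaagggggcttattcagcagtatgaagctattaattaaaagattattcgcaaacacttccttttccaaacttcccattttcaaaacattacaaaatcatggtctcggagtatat
Near Ang6, chr14:43999485-43999684: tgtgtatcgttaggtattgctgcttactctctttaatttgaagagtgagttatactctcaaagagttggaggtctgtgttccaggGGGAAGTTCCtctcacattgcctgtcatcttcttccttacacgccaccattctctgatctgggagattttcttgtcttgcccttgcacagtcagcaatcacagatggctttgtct
Ear11, chr14:51254732-51254931: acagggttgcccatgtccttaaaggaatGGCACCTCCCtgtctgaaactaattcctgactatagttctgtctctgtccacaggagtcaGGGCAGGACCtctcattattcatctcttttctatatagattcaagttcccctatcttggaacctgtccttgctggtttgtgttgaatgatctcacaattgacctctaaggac
Intron of Simc1, chr13:54536151-54536350: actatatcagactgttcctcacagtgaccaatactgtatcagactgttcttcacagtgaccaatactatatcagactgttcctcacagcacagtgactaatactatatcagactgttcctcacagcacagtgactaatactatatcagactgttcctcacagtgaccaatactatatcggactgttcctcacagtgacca
Near Plxnd1, chr6:116004324-116004523: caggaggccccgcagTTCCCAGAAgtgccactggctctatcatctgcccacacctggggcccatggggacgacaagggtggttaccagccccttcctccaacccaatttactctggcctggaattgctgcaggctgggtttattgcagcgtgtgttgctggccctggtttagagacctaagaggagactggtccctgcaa
Intron of Clec4d, chr6:123262949-123263148: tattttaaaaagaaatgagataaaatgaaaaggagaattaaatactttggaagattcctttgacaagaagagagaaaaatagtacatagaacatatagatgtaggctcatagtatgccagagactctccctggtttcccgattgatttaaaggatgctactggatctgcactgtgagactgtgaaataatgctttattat
Gm10936, near Lyz2, chr10:117250376-117250575: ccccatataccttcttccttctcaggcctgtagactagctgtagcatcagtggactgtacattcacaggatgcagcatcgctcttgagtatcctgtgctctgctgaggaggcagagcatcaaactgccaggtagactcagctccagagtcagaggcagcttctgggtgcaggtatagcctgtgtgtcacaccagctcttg
Retnla holds a STAT6 match next to a C/EBP match, but its 30 bases were cut around that match, so its presence was fixed by the choice. Chil3 and the Plxnd1 region hold matches to the shorter STAT motif. The 250 bases before the starts of Ear11, Clec4d and Hist1h4c, not shown, held no match to either STAT motif. The window in Simc1 is a short tandem repeat, where the placement of reads can be uncertain. Matches are letters in a window and not measured binding. Over all 32536 windows of 250 bases before RefSeq gene starts, 5.89% held a STAT6 match, 7.04% a match to the shorter STAT motif, 9.57% a C/EBP match and 46.0% an NF-kB match, so the last is common by its letters.

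The values are peak scores, the −log10 of the p or q value that the peak caller gave each peak, inferred from the values, which do not tell which of these it is. A score grows with enrichment and with sequencing depth, and depth is unknown here. The controls held 20803 and 19279 peaks and the 24 hr IL-4 samples 21365 and 22149, with median scores of 7.02 to 7.19 in all 4. Over the 10880 regions with a peak in all 4 samples, the log2 scores of replicates correlated with r of 0.779 and 0.784 and those of unlike samples with r of 0.606 to 0.615, a description across regions. A gene's score is the sum over its peaks outside intergenic space, and a peak that was not listed was set to the lowest score of the experiment (1.44). Changes are log2 differences tested with limma, a linear model fitted across all genes and here over all 8 RNAPII-pS5 samples of the pretreatment experiment. These include the samples labelled ctrl_1hLPS and 24hIL4_1hLPS, given LPS for 1 hr (14476 to 18207 peaks). They help set the spread and the scaling but are not in the groups compared. A fold against a missing peak therefore depends on the floor of 1.44, and so do its SE and p. Where both samples of a group lack a peak they take the same value before scaling. That group then adds little to the spread, and SE and p can come out too small. With 2 samples against 2, an exact permutation test of a single gene cannot go below p = 0.333, so calls rest on the pooled spread.

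Most regions that changed after 24 hr IL-4 lay outside promoters, and promoter peaks made up a smaller share of the lists. Peaks of the promoter class made up 20.3% and 20.0% of all peaks in the controls and 18.5% and 18.2% in the 24 hr IL-4 samples, and peaks within 1000 bp of a start site 33.2% and 33.5% against 29.6% and 29.6%. Intergenic peaks made up 34.1% and 34.3% against 35.6% and 35.9%. The groups did not overlap in any of these shares, which were not tested.

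Of 21664 regions with a peak in at least 2 samples, 2909 were higher and 2142 lower at a limma adjusted p of at most 0.05, which is 13.4% and 9.89% of those tested. The shares differed by class. Among 4033 promoter regions, 199 (4.93%) were higher and 246 (6.10%) lower. Introns gave 14.6% higher and 10.9% lower of 7582, intergenic regions 17.1% and 11.4% of 7748, regions at transcription termination sites 14.3% and 10.3% of 968, and exons 10.5% and 6.38% of 1333. Of the 5 classes, promoters had the lowest share called in each direction.

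Much of this was presence against absence of a listed peak. A peak was listed in both 24 hr IL-4 samples and in neither control at 2920 regions (9.46% of 30864), of which 2390 were called. It was listed in both controls and neither 24 hr IL-4 sample at 1920 (6.22%), of which 1666 were called. Among the 10880 regions with a peak in all 4 samples, 337 were higher and 318 lower. A peak in at least 2 samples was still needed when 1 sample was left out. Regions listed only in the group that lost it could then not enter, which by itself lowers the count in that direction. Leaving out 1 control left 2394 or 2196 regions higher but 164 or 138 lower, and leaving out 1 of the 24 hr IL-4 samples left 114 or 130 higher and 1770 or 1883 lower (replicate 1 and replicate 2 in that order).

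**Figure D1:**
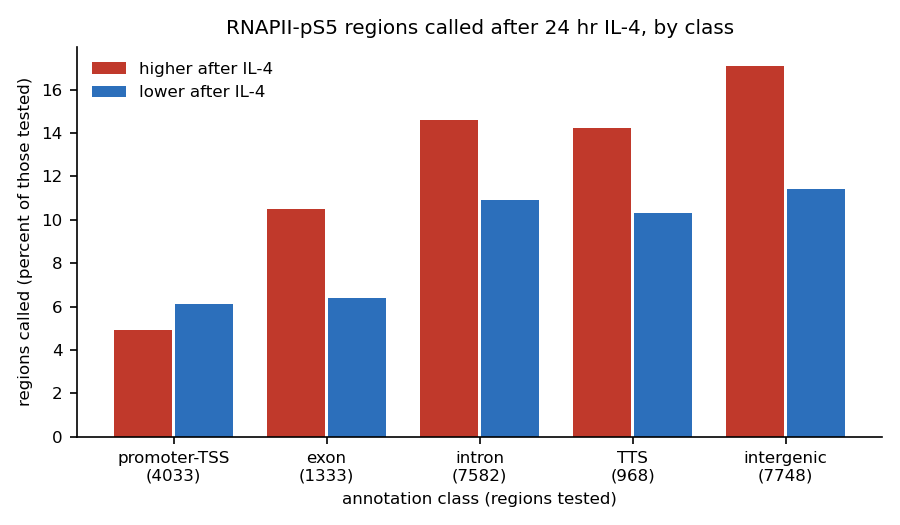
Share of merged RNAPII-pS5 regions (y axis, percent of regions tested) that were higher or lower after 24 hr IL-4 at a limma adjusted p of at most 0.05, by the class of the region's highest peak (x axis). Promoter bars stand at 4.93% and 6.10%, below those of introns (14.6% and 10.9%) and intergenic regions (17.1% and 11.4%).

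By gene, 497 of 9570 were higher (5.19%) and 386 lower (4.03%), with a median change of −0.01 over all tested genes. Peaks were listed in both 24 hr IL-4 samples and neither control at 587 genes (6.13%), of which 378 were called, and in both controls alone at 411 (4.29%), of which 263 were called. Among 6381 genes with a peak in all 4 samples, 87 rose (1.36%) and 92 fell (1.44%). Leaving out 1 sample changed the set of genes tested as well as the spread. Genes with a peak only in the group that lost a sample then had too few peaks to enter. The genes tested fell to 8793 and 8936 without control replicate 1 and 2, and to 8707 and 8670 without IL-4 replicate 1 and 2. Counts from such fits, given below, therefore do not measure the spread alone. A limma fit to the 4 samples alone called 0 genes, with 1170 higher and 987 lower at an unadjusted p of at most 0.05 and a smallest adjusted p of 0.0532.

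**Figure D2:**
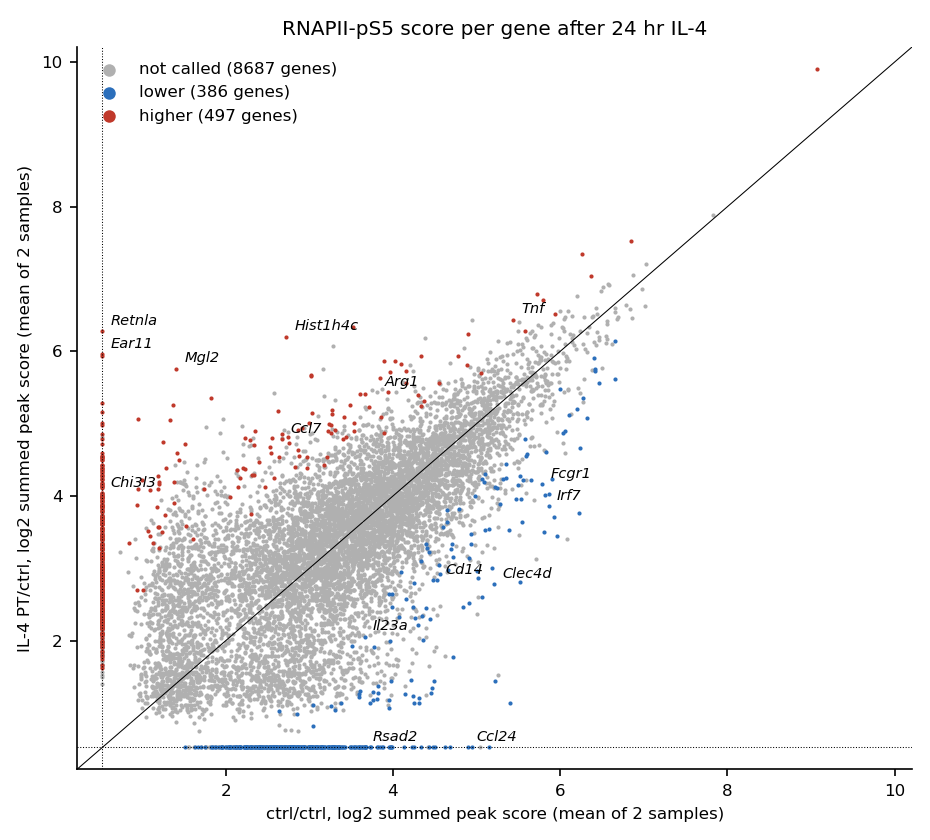
Mean log2 RNAPII-pS5 score of each of 9570 genes in the 2 controls (ctrl/ctrl, x axis) and the 2 samples with 24 hr IL-4 (IL-4 PT/ctrl, y axis), with 497 genes higher in red, 386 lower in blue and 8687 not called in grey. Many called genes lie on the dotted lines, where a missing peak was set to the lowest score of 1.44.

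Retnla and Ear11, genes of alternative activation, had the highest estimates of all genes called higher. Of 34 list members, 30 had a peak and 27 were tested: 9 rose, 1 fell, 20 of 27 estimates were positive and the median was 1.34, beside −0.01 over all genes. In the same fit, 14 of them had a peak in all 4 samples, with a median of 0.18 beside −0.03 over all such genes, and 1 of these rose. When a sample was left out, genes listed only in its group could not enter. With single libraries left out the number that rose ran from 7 (control replicate 1) and 6 (control replicate 2) to 1 (IL-4 replicate 1) and 2 (IL-4 replicate 2).

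Retnla, which encodes the secreted protein RELMα, had no listed peak in either control and scores of 73.7 and 82.2 in the 24 hr IL-4 samples, over a region that spans the gene (chr16:48842548-48846554). Its log2 change was 5.69 ± 0.45 (SE, limma adjusted p = 0.00635). Ear11, an eosinophil-associated ribonuclease now named Rnase2a, went from no peak to 62.5 and 62.1 (5.37 ± 0.35, limma adjusted p = 0.00391). Both ranges lie far from the floor, and outside intergenic space each gene is marked by a single region. Intergenic regions at −10960 and −8758 bp from the start of Retnla and at +18183 bp from that of Ear11 had peaks in all 4 samples and were not called. Ear11 belongs to a family of near-identical copies, among which reads can be split.

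Mgl2, a C-type lectin of alternatively activated cells, had 4.89 and no peak in the controls and 53.5 and 54.9 after IL-4 (4.29 ± 0.60, limma adjusted p = 0.00893). The gain in this score lay past its promoter. Intronic regions at +352 and +1517 bp went from no peak to 9.51 and 8.43 and to 5.88 and 9.46, and a region at its 3′ end from none to 30.8 and 27.5, whereas the promoter region had 4.89 and 4.64 against 7.27 and 9.49 and was not called. An intergenic region at −16097 bp, which the score leaves out, also went from none to 12.5 and 11.9 (3.07 ± 0.23, limma adjusted p = 0.00104). Cdh1, the adhesion protein E-cadherin, rose from no peak to 24.7 and 40.4 (4.39 ± 0.44, limma adjusted p = 0.00682), all of it in intronic regions.

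Chil3, listed as Chi3l3 and encoding the chitinase-like protein Ym1, had no peak in the controls and 10.9 and 24.6 after IL-4 (3.45 ± 0.59, limma adjusted p = 0.0157). It has a close paralog, so its reads may be shared. Fn1 (fibronectin) reached 13.4 and 14.9 and Matk, a kinase that restrains Src family members, 12.2 and 13.8, each from no peak. Ccl7, a monocyte chemoattractant, was measured in all 4 samples, with 5.94 and 6.89 in the controls and 24.1 and 31.8 after IL-4 (2.05 ± 0.22, limma adjusted p = 0.00682), though its promoter peaks alone fell (−1.65, limma adjusted p = 0.0223). Edn1, encoding the vasoconstrictor endothelin, made a small gain to 5.23 and 8.74 and stood close to the threshold (limma adjusted p = 0.0420), and its estimate was −0.12 with intergenic peaks included.

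Ccl24, a chemokine that draws eosinophils and is usually counted among IL-4-induced genes, went the other way. A promoter region at −161 bp (chr5:135572957-135573475) scored 28.4 and 31.3 in the controls and was listed in neither 24 hr IL-4 sample (−4.43 ± 0.45, limma adjusted p = 0.00682). Its RNAPII-pS2 scores were 36.6 and 30.1 against 8.87 and 10.2, a change of −1.65 that did not pass (limma adjusted p = 0.134).

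**Figure D3:**
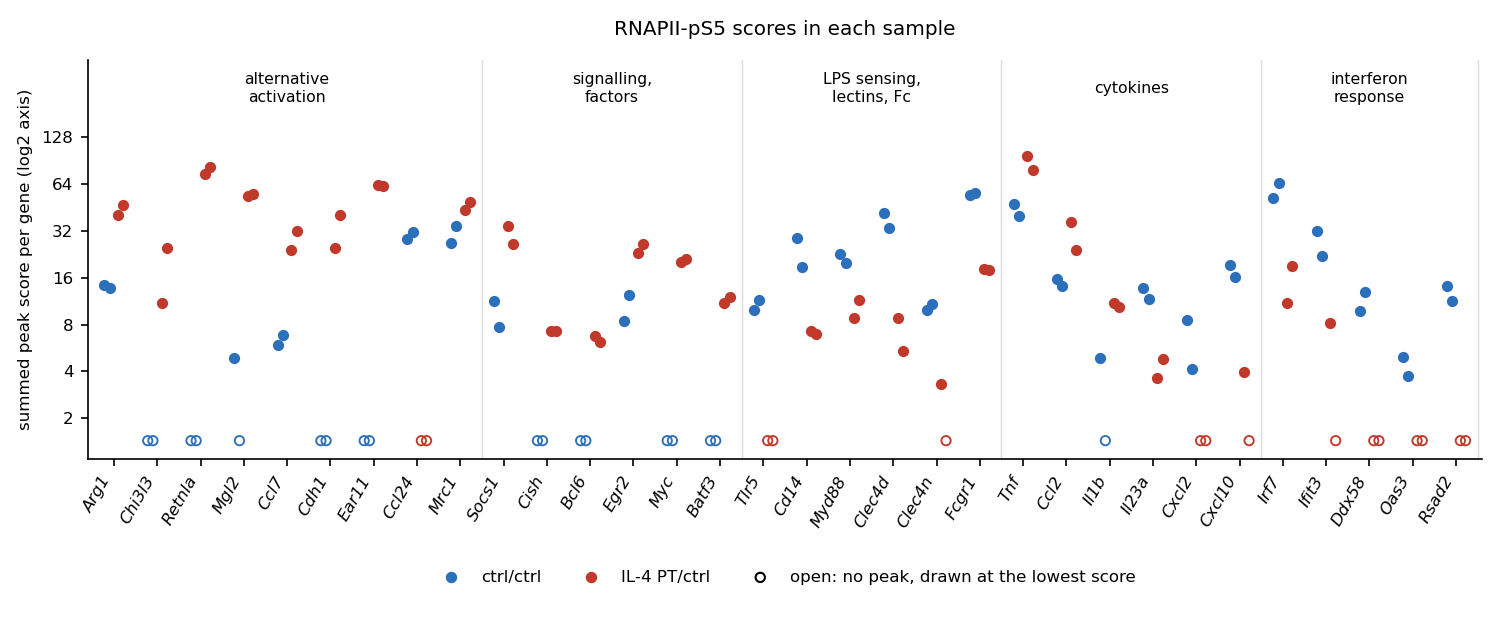
RNAPII-pS5 score (log axis) of 32 list genes in each of the 4 samples, controls and 24 hr IL-4, with open symbols where no peak was listed and the lowest score of 1.44 was drawn. Retnla goes from no peak to 73.7 and 82.2, and Ccl24 from 28.4 and 31.3 to no peak.

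Arg1, the arginase that diverts arginine to ornithine, did not pass as a whole gene. It had 14.3 and 13.7 in the controls and 40.4 and 46.5 after IL-4, a change of 1.57 ± 0.86 (limma adjusted p = 0.357). The groups did not overlap, which is weak evidence, since an exact permutation test of 2 samples against 2 then gives p = 0.333. The regions of Arg1 split. The promoter region at −806 bp scored 8.94 and 8.25 in the controls and was absent after IL-4 (−2.59 ± 0.20, limma adjusted p = 0.00104). Inside the gene, regions at +332 and +1589 bp were absent in the controls and scored 12.1 and 13.0 and 4.95 and 11.4 after IL-4, and a region beyond its 3′ end that overlaps Med23 went from none to 19.4 and 16.7 (3.63 ± 0.26, limma adjusted p = 0.00104).

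The same layout was seen at Egr2 and Klf9, which were picked for it after their values were seen. At Egr2, a zinc finger factor induced by IL-4, a promoter region at −684 bp had 3.49 and 12.4 in the controls and none after IL-4, and an intron at +569 bp rose from 4.90 and none to 23.1 and 17.2 (2.89 ± 0.55, limma adjusted p = 0.0115). At Klf9, a zinc finger factor, a region at −672 bp fell from 6.05 and 6.27 to none while an intronic region at +1644 bp rose from none to 4.96 and 8.80. At Socs1, the feedback inhibitor of JAK kinases, the promoter region at −428 bp also fell, from 11.4 and 7.73 to none, but its regions that rose were classed as intergenic, as at +2901 bp (none to 16.4 and 16.2), or lay in introns of Clec16a. The annotation gives a peak 1 class by the place of its centre, so loss in a promoter with gain in the adjoining intron cannot be told apart here from a shift of the peak.

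Across genes this layout was present but not general. Of 211 promoter regions in genes with an inside region higher and none lower, 16 (7.58%) were higher and 28 (13.3%) lower. Of 168 in genes with an inside region lower and none higher, 13 (7.74%) were higher and 19 (11.3%) lower, and of 863 in genes whose inside regions were not called 50 (5.79%) and 66 (7.65%). The other 2769 promoter regions belong to genes with no inside region tested, and of these 120 (4.33%) were higher and 131 (4.73%) lower. In the first 3 kinds of genes both shares were above the 4.93% and 6.10% of all promoter regions, whichever way the inside moved, and these shares were not tested. Over 1742 genes tested for both, promoter and inside changes correlated with r of −0.35 and rho of −0.28, which is across genes and shares the annotation named above. Scored by promoter peaks alone, 1 of 7 alternative activation genes rose and 4 fell, with a median of −1.65, where 4.99% of 4345 genes rose and 5.25% fell. Scored by exon, intron and termination site peaks, 9 of 26 rose and 0 fell, where 8.46% of 6842 genes rose and 6.08% fell.

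Among 17 tested genes of IL-4 receptor and STAT6 signalling, 3 rose and 1 fell (17.6% and 5.88%, median −0.05), where 5.19% and 4.03% of all genes tested did. In a list of this size 1 call lies close to those shares, and the same base holds for the lists that follow. Those that rose were feedback inhibitors or repressors. Cish, which dampens cytokine receptor signals, went from no peak to 7.22 and 7.25 (2.27 ± 0.51, limma adjusted p = 0.0394), and Bcl6, a repressor that competes for STAT motifs, from none to 6.77 and 6.17 (2.10 ± 0.43, limma adjusted p = 0.0261). For Bcl6 the estimate turned to −0.46 with intergenic peaks included (limma adjusted p = 0.240), and an intergenic region at +24648 bp fell from 5.46 and 5.50 to none and 2.79. Socs1 rose from 11.4 and 7.73 to 34.0 and 26.4 (1.61 ± 0.26, limma adjusted p = 0.0127), partly through peaks inside Clec16a next to it, and with each merged region given to 1 gene the change was 0.58 and the call was lost (limma adjusted p = 0.456). Stat3, which carries IL-10 and IL-6 signals, fell from 14.2 and 17.9 to 5.07 and 6.02 (−1.59 ± 0.31, limma adjusted p = 0.0231). Stat6 itself had 16.2 and 15.7 against 10.02 and 23.1, so its groups overlapped.

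Of 16 tested transcription factors of alternative activation, 2 rose (12.5%), 0 fell and the median was 0.24. Myc had no peak in the controls and an intronic region at +787 bp with 20.1 and 21.1 after IL-4 (3.77 ± 0.56, limma adjusted p = 0.0102). Batf3, a basic leucine zipper factor, reached 10.9 and 12.1 from none (2.93 ± 0.65, limma adjusted p = 0.0381). Irf4 had no peak and 10.2 in the controls and 23.9 and 35.8 after IL-4, which did not pass (2.87 ± 0.99, limma adjusted p = 0.136). Pparg, the lipid-sensing nuclear receptor, had 26.9 and 18.2 against 21.9 and 15.9 and its groups overlapped.

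Of 20 tested genes of lipid handling, 2 rose (10%) and 0 fell (median 0.23). Both are classical targets of PPARγ. Fabp4, a fatty acid carrier, went from no peak to 18.04 and 9.81 (3.15 ± 0.51, limma adjusted p = 0.0127), and Angptl4, an inhibitor of lipoprotein lipase, from 4.90 and 3.99 to 17.3 and 17.8 (1.93 ± 0.40, limma adjusted p = 0.0295). The cholesterol exporter Abcg1 had 3.68 and 6.66 against 31.9 and 21.5 without passing (limma adjusted p = 0.0961). Of 10 genes of arginine and polyamine metabolism, 0 were called (median 0.56).

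Antigen presentation by MHC class II had 9 of 10 positive estimates, a median of 0.73 and 2 genes that rose (20.0%). Ciita, the master activator of class II genes, went from 3.64 and none to 21.3 and 17.7 (3.03 ± 0.67, limma adjusted p = 0.0381), and H2-DMb1, which helps load peptides, from none to 4.41 and 7.89 (1.97 ± 0.35, limma adjusted p = 0.0172). Of 19 lysosomal genes 1 (5.26%) rose, Gla, the α-galactosidase (none to 6.44 and 6.49). Of 32 genes for cytosolic ribosomal proteins, 1 rose (Rpl15), and the median was −0.03. Of 15 cell cycle genes, Ccnd2, a D-type cyclin, and Mcm5, a part of the replicative helicase, fell, from 10.3 and 9.51 and from 4.95 and 3.93 to no peak. For Mcm5 this is a promoter region, and with intergenic peaks included its estimate turned to 0.68 (limma adjusted p = 0.403).

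Interferon response genes had the lowest median of the lists used. Of 22 tested, 0 rose, 5 fell and 19 had negative estimates, with a median of −1.12. In the same fit, 13 of them had a peak in all 4 samples, with a median of −0.51, and 1 of these, Irf7, fell. When a sample was left out, genes listed only in its group could not enter. Without a single library 1 (each control left out in turn) or 4 (each IL-4 sample) fell, and with each merged region given to 1 gene 8 of 23 fell. Irf7, the factor that amplifies type I interferon, fell from 52.0 and 65.03 to 11.1 and 19.1 (−2.06 ± 0.29, limma adjusted p = 0.00888), and its exonic region at +889 bp from 38.5 and 40.3 to 7.87 and 9.87. Ddx58, the viral RNA sensor RIG-I, fell from 9.74 and 12.9 to no peak (−3.02 ± 0.36, limma adjusted p = 0.00726), and Rsad2, the antiviral enzyme viperin, from 14.1 and 11.3 to none (−3.20 ± 0.26, limma adjusted p = 0.00640).

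Ifit3, an interferon-induced RNA-binding protein family member, fell from 31.8 and 21.96 to 8.14 and none (limma adjusted p = 0.0460), though some of its regions overlap Ifit2. Oas3, which makes the activator of RNase L, had 4.95 and 3.72 against none. Scored by promoter peaks alone, 2 of 10 interferon genes rose and 0 fell. Mx1, an antiviral GTPase, had 46.9 and 67.5 against 20.5 and 29.7 and did not pass (limma adjusted p = 0.0854).

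Of 24 tested genes of Toll-like and NOD-like receptor signalling, which sense bacterial products and relay the signal, 0 rose and 3 (12.5%) fell (median −0.38), and in RNAPII-pS2 1 of 27 was higher and 1 lower. Tlr5, the flagellin receptor, fell from 9.91 and 11.5 to no peak (−2.95 ± 0.32, limma adjusted p = 0.00682), and its promoter region at −912 bp from 6.15 and 11.5 to none. Cd14, the coreceptor that delivers LPS, fell from 28.6 and 18.6 to 7.29 and 6.99 (−1.75 ± 0.27, limma adjusted p = 0.0116), while its RNAPII-pS2 scores were 34.8 and 22 against 39.9 and 40.5. Myd88, the shared adaptor, fell from 22.5 and 19.8 to 8.87 and 11.5 (limma adjusted p = 0.0288), a call that was lost with each merged region given to 1 gene (−0.37, limma adjusted p = 0.303). Tlr4 itself had 31.4 and 20.9 against 25.8 and 27.3 and its groups overlapped.

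Of 14 inflammasome genes 1 (7.14%) fell: Nlrp1b, a sensor that starts inflammasome assembly, from 43.2 and 33.1 to 18.9 and 15.9 (−1.19 ± 0.26, limma adjusted p = 0.0377). Nlrp3 had 20.7 and 30.1 against 19.2 and 9.49, which did not pass (limma adjusted p = 0.221), and Il1b 4.85 and none against 10.9 and 10.3 (limma adjusted p = 0.0815). An Il1b region classed as intron lay at −2364 bp (4.85 and none against 5.92 and 10.3). An intergenic region at −9445 bp had 6.53 and 7.35 against 3.75 and 6.72, and neither region was called. The study describes lower basal RNAPII-pS5 and RNAPII-pS2 over the Il1b gene body after IL-4, shown as signal tracks. It also reports lower Il1b mRNA and lower RNA from an upstream Il1b enhancer. The region at −2364 bp lies upstream of the start, so its scores are not a measure of the gene body. Of 18 cytokine and chemokine genes, 2 (11.1%) rose and 4 (22.2%) fell (median 0.03). Tnf rose from 47.3 and 39.6 to 95.9 and 78.4 (0.94 ± 0.14, limma adjusted p = 0.0102), and the monocyte chemokine Ccl2 from 15.7 and 14.1 to 36.1 and 23.9 (0.92 ± 0.22, limma adjusted p = 0.0467), with its RNAPII-pS2 lower (−0.97, limma adjusted p = 0.0214). Cxcl10, an interferon-induced chemokine, fell from 19.3 and 16.1 to 3.99 and none, Il23a, a subunit of IL-23, from 13.7 and 11.7 to 3.63 and 4.78, and Cxcl2, which draws neutrophils, and Csf1, the growth factor of macrophages, to no peak. With intergenic peaks included the estimate of Csf1 turned to 1.54 (limma adjusted p = 0.0300), and intergenic regions at −17676 and +31810 bp had peaks only after IL-4.

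Surface receptors for microbial sugars and antibodies held 3 genes that fell of 13 tested, and 0 that rose (median 0.13). Clec4d fell from 41.4 and 33.0 to 8.81 and 5.41 (−2.48 ± 0.30, limma adjusted p = 0.00740), in the intron whose sequence is shown above. Its neighbour Clec4n (dectin-2) fell from 9.95 and 10.8 to 3.34 and none (limma adjusted p = 0.0406), and Fcgr1, the high-affinity IgG receptor, from 54.2 and 55.8 to 18.1 and 17.9 (−1.67 ± 0.30, limma adjusted p = 0.0180). Of 13 NF-kB subunits and inhibitors, the inhibitor Nfkbie fell (7.69%), though its estimate was 0.62 by promoter peaks alone. Of 17 AP-1 and immediate early genes, the MAP kinase phosphatase Dusp1 rose (5.88%), from 23.6 and 18.3 to 46.0 and 34.7 (0.88 ± 0.21, limma adjusted p = 0.0466).

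**Figure D4:**
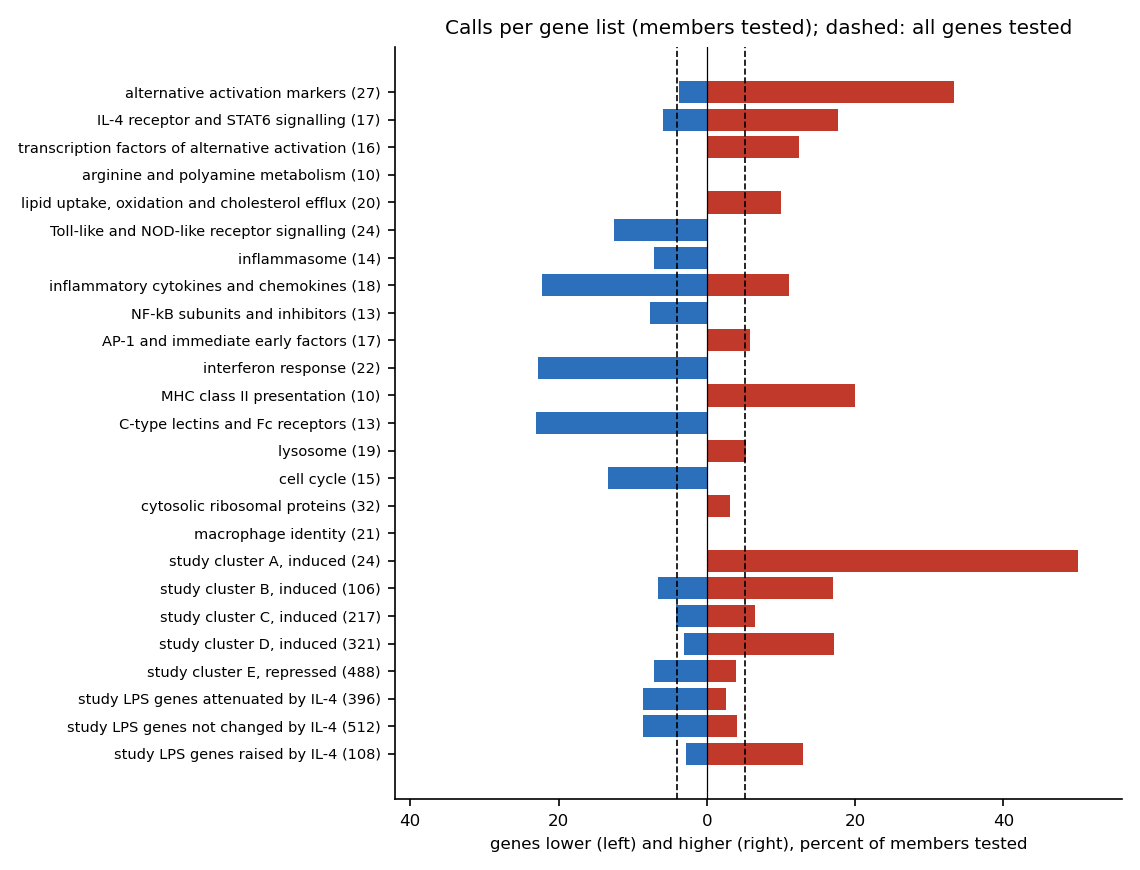
Share of tested genes (percent) that were higher or lower after 24 hr IL-4 in each gene list, with dashed lines at the shares over all genes tested (5.19% higher and 4.03% lower). Alternative activation genes have 9 of 27 higher, and interferon response genes 5 of 22 lower.

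The study's own lists, drawn from RNA measured in these macrophages with IL-4 and so not chosen independently of the treatment, were used by membership only. In cluster A of induced genes, 12 of 24 tested rose and 0 fell (median 1.93). In clusters B, C and D, also induced, 18, 14 and 55 rose and 7, 9 and 10 fell, of 106, 217 and 321 (medians 0.34, −0.01 and 0.48), which is 17.0%, 6.45% and 17.1% higher and 6.60%, 4.15% and 3.12% lower, beside 5.19% and 4.03% of all genes. In cluster E, the repressed genes, 19 (3.89%) rose and 35 (7.17%) fell of 488 (median −0.28). Of LPS-induced genes whose induction IL-4 had attenuated, 10 (2.53%) rose and 34 (8.59%) fell of 396 (median −0.16), and of those it had not changed 21 (4.10%) rose and 44 (8.59%) fell of 512 (median −0.15). Of those it had raised, 14 (13.0%) rose and 3 (2.78%) fell of 108 (median 0.22).

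Several genes that the study discusses by name were not called. Hbegf, a growth factor of the EGF family, had 4.89 and 6.72 in the controls and 17.6 and 25.3 after IL-4 (1.82 ± 0.51, limma adjusted p = 0.0753). Fos, a subunit of AP-1, had 28.1 and 17.0 against 47.7 and 36.7 (0.87 ± 0.28, limma adjusted p = 0.110). The groups did not overlap in either, which is weak evidence, as at Arg1. Abca1, a cholesterol exporter, had 49.6 and 26.8 against 17.8 and 17.5 (limma adjusted p = 0.360), and Smad3, a transducer of TGF-β, 38.1 and 37.2 against 23.3 and 32.7 (limma adjusted p = 0.218). Klf4, Tlr2 and Lyz1 had estimates of −0.65, −1.63 and −0.63, and Il18 had a peak in 1 sample and was not tested. The regions of Klf4 were called in both directions. Its promoter region at −722 bp fell from 16.5 and 9.42 to none. An intronic region at +1013 bp rose from none to 6.45 and 4.95, as did some intergenic regions, such as that at −34999 bp (none to 15.7 and 20.2).

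The largest increases among genes with a peak in all 4 samples included genes outside these lists. The peaks of such a gene need not lie in the same region in each sample. March1, a ubiquitin ligase that turns over MHC class II and now named Marchf1, rose from 19.5 and 6.80 to 69.1 and 95.0 (2.75 ± 0.43, limma adjusted p = 0.0121). Its highest region, at −33173 bp over a DNA transposon, went from none to 57.0 and 66.5. Its exonic region at +133 bp was not called (limma adjusted p = 0.419). Tmem26 rose from 5.96 and 3.70 to 29.4 and 26.3, Pik3r3, a regulatory subunit of PI 3-kinase, from 5.89 and 4.43 to 25.4 and 35.3, and Klf9 from 6.05 and 6.27 to 33.0 and 39.6. At Tmem26 an intronic region at +1526 bp went from none to 20.6 and 22.5, while 1 at +8703 bp fell from 5.96 and 3.70 to none. Most of the gain of Klf9 came from a region at −162023 bp in Trpm3 (none to 25.0 and 23.5), and by promoter peaks alone its estimate was −2.11. The highest estimate carried the name of the histone gene Hist1h4c (6.48 and 6.74 to 72.4 and 74.9, 3.42 ± 0.40, limma adjusted p = 0.00708), but its region (chr13:23703037-23704570) lies at the 3′ end of Hfe, which regulates iron uptake. Of the 15 genes with the largest increases, the highest region overlapped the named gene at 10.

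Of the 15 largest decreases, the highest region overlapped the named gene at 8. Chst11, which sulfates chondroitin, fell from 60.7 and 64.5 to 7.68 and 15.5 (−2.58 ± 0.33, limma adjusted p = 0.00777). Its highest region, an intron at +109545 bp, fell to none and 15.5 without passing (limma adjusted p = 0.110). An intron at +116041 bp lost its peaks (−3.67, limma adjusted p = 0.00202). The 7.68 came from an intron at +19675 bp that was not called. Intergenic regions at −30617 and −22791 bp, which the score leaves out, had peaks only after IL-4 and were called higher. Chst11 is in the study's induced cluster D. Slc34a1, a phosphate carrier, fell from 78.5 and 70.9 to 15.7 and 11.8 (−2.52 ± 0.57, limma adjusted p = 0.0394). Zfp819, a zinc finger gene, fell from 45.2 and 46.6 to 9.33 and 5.27 (−2.77 ± 0.37, limma adjusted p = 0.00833). Both IL-4 samples lay below both controls in these genes by the rule that chose them. Pola2, a subunit of DNA polymerase α, was lower in RNAPII-pS5 (25.1 and 18.7 to 8.08 and 3.02) and higher in RNAPII-pS2 (0.86, limma adjusted p = 0.0237).

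Genes with peaks only after IL-4 were ranked by the lower of their scores. After Retnla and Ear11 came 4833439L19Rik (77.2 and 48.6) and Apbb2, an adaptor of amyloid precursor protein (39.6 and 38.5). Most of the score of 4833439L19Rik lay in the tandem repeat inside Simc1 shown above (69.8 and 38.2). Its promoter region at −67 bp went from none to 7.48 and 10.4. Il31ra, the receptor for IL-31, was also among the first 10 (24.9 and 34.1). Among genes with peaks only in the controls they were D730005E14Rik (37.7 and 33.2, a region that overlaps Apobec3), Ccl24 and Actg1 (39.5 and 27.3). For Actg1, a cytoplasmic actin, the direction depended on the assignment of peaks: its change was −4.57 ± 1.62 (limma adjusted p = 0.147), and 1.00 (limma adjusted p = 0.0165) with each merged region given to 1 gene. Sntb1, a part of the dystrophin complex, had 26.3 and 36.2 against none (−4.48 ± 0.69, limma adjusted p = 0.0113).

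The highest region found only after IL-4 was intergenic, its peak's centre 2241 bp from Ang6, a ribonuclease of the angiogenin family (chr14:43998380-44000489), with 119 and 127 (6.40 ± 0.69, limma adjusted p = 0.00134). An intergenic region on chr5 assigned to Med13l, 155298 bp away (chr5:118404088-118406122), rose from 4.55 and 3.40 to 27.6 and 35.5 (2.98 ± 0.22, limma adjusted p = 0.00104). A region 1006 bp from Tfrc, the transferrin receptor, rose from 10.7 and 4.23 to 33.7 and 37.8 (2.39 ± 0.46, limma adjusted p = 0.0124). An intron of March1 over a DNA transposon went from none to 57.0 and 66.5.

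The largest loss among regions with a peak in all 4 samples was at an endogenous retroviral repeat nearest to Ly6e (chr15:74930527-74933895), from 76.7 and 74.2 to 8.51 and 8.55 (−3.16 ± 0.23, limma adjusted p = 0.00104). Reads in such repeats can come from several copies. At the lysozyme locus, where Lyz1 and Lyz2 are near-identical neighbours, a region at the 3′ end of Lyz2 had 27.5 and 24.1 in the controls and none after IL-4 (−4.18 ± 0.79, limma adjusted p = 0.0114), and a region 26855 bp from Lyz2, in Gm10936, had 35.7 and 39.4 against none (−4.72 ± 0.49, limma adjusted p = 0.00117). Lyz2 as a gene had 52.3 and 51.2 against 16.4 and 14.5, just short of the threshold (limma adjusted p = 0.0632).

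Windows of 200 bases from the 17631 regions outside promoters were searched for motifs, on both strands. The AP-1 motif TGANTCA was in 16.3% of the 2710 regions that rose, in 6.01% of the 1896 that fell and in 10.7% of all. The STAT6 motif was in 8.82%, 5.01% and 6.19%, and the shorter STAT motif in 7.27%, 8.49% and 6.82%. In the other direction the PU.1 motif GAGGAAGT was in 6.09%, 9.70% and 7.52%, and C/EBP in 11.8%, 13.9% and 12.3%. NF-kB matches hardly differed, at 23.4%, 23.4% and 25.0%. Among regions with a peak in all 4 samples, AP-1 was in 10.6% of 293 that rose and 7.53% of 279 that fell, and STAT6 in 6.14% and 6.09%, so for these motifs the wider gaps belong to regions gained and lost. In those regions the shorter STAT motif was in 8.53% and 8.60%, PU.1 in 4.10% and 8.60%, C/EBP in 10.6% and 13.3% and NF-kB in 25.6% and 28.7%. Median GC content was 48% in regions that rose, 46.5% in those that fell and 48% in all.

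Peaks of other factors in the series were laid over the same regions. PU.1, which opens macrophage enhancers, had a peak in untreated cells at 60.3% of regions that rose, 80.7% of those that fell and 71.5% of all. The coactivator p300 was at 77.1%, 84.5% and 82.2%, and H3K27Ac, a mark of active enhancers, at 55.1%, 62.0% and 65.3%. The NF-kB subunit p65 was at 13.3% of rising and 43.9% of falling regions in controls of the pretreatment experiment, and at 39.5% and 34.8% after 24 hr IL-4, beside 37.2% and 44.4% of all regions. RNAPII-pS2 was at 48.6% of rising regions in the controls and 90.7% after IL-4, and at 93.4% and 58.8% of falling ones, beside 84.4% and 87.1% of all.

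RNAPII-pS2, measured with another antibody in the same 2 groups, gave 986 genes higher (9.58%) and 890 lower (8.65%) of 10294. Without centring the samples on their shared genes it gave 785 and 1039, since the median change then moved from −0.09 to −0.25, so the balance of its directions rests on the scaling. Without control replicate 1, control replicate 2, IL-4 replicate 1 and IL-4 replicate 2 its counts were 562, 610, 219 and 229 higher and 93, 97, 490 and 481 lower. In these fits too, genes listed only in the group that lost a sample could not enter. Of 421 genes higher in RNAPII-pS5 and tested in both, 214 were higher and 9 lower in RNAPII-pS2, with a median of 1.66. Of 344 lower ones, 4 were higher and 116 lower (median −1.27). Across 9016 genes the 2 changes correlated with r of 0.54 and rho of 0.47, over genes and not samples. Retnla (5.50), Ear11 (5.22) and Irf7 (−1.51) were called in RNAPII-pS2 in the same direction. Of alternative activation genes 10 of 29 were higher and 1 lower there, and of interferon genes 0 of 26 and 8 (median −1.35).

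RNAPII-pS5 after 1 hr of IL-4 came from a separate experiment with its own controls, whose samples had 30420 to 35424 peaks and median scores of 11.7 to 12.9, so time and experiment cannot be told apart. In a fit of all 12 RNAPII-pS5 samples, 147 genes were higher (1.18%) and 152 lower (1.22%) at 1 hr. Of 655 genes higher at 24 hr in that fit, 20 were higher and 13 lower at 1 hr, and of 554 lower, 5 and 12. The changes correlated across 12421 genes with r of 0.06. The difference between the 24 hr and the 1 hr change was called in 639 genes, 367 positive (2.95%) and 272 negative (2.19%), in 407 without replicate 2 of the 1 hr IL-4 samples, and in 22 of 6180 genes with a peak in all samples compared.

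Among list genes, the difference between 24 hr and 1 hr was called for Retnla (4.95), Chil3 (3.40), Fabp4 (3.85) and Myc (3.18), higher at 24 hr, and for Rsad2 (−4.73), Ccl24 (−4.34), Ddx58 (−3.42) and Irf7 (−2.82), lower. Retnla and Chil3 had no peak in the controls of either experiment. Myc (55.0 and 33.0) and Fabp4 (19.3 and 10.3) had peaks in the 1 hr controls but none in the 24 hr controls. The same held for Cdh1 (23.3 and 9.49) and Matk (22.1 and 25.3), which were also called. Such differences depend on the floor set for missing peaks. The difference was not called for the feedback genes Cish, whose 1 hr change was 2.49, and Socs1. Nor was it called for Ccl7, whose 1 hr change of 4.39 was above its 24 hr change (difference −2.34, limma adjusted p = 0.0738).

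**Figure D5:**
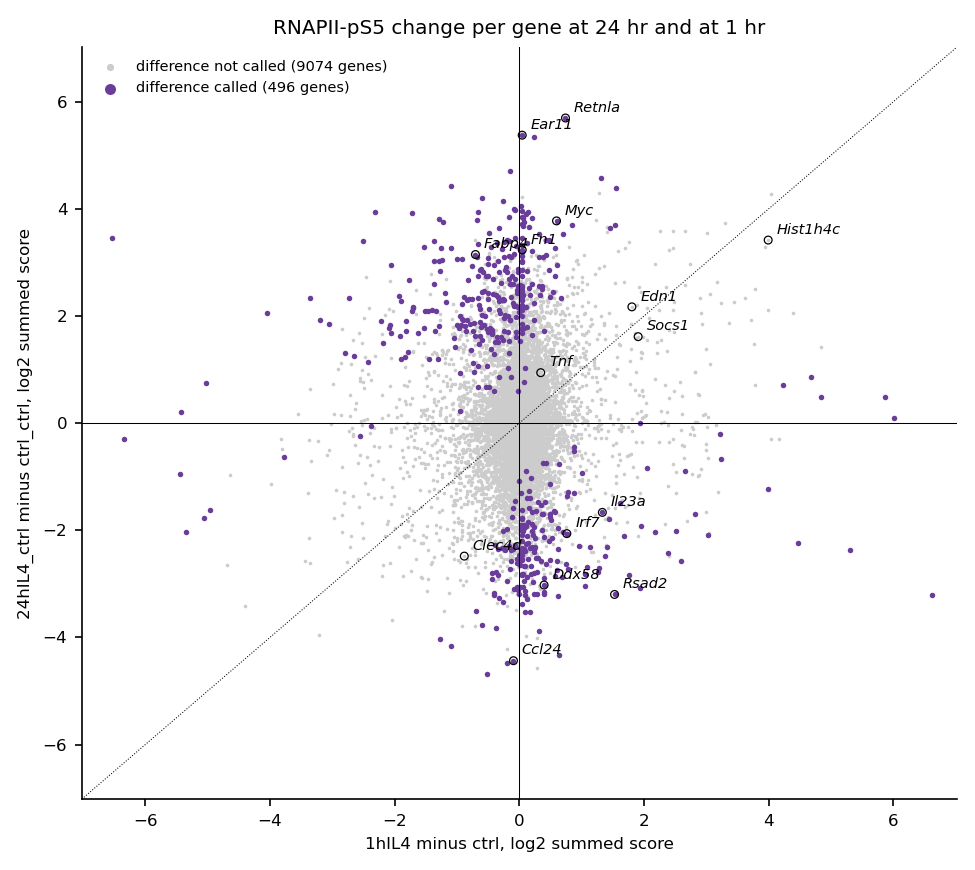
Change of RNAPII-pS5 after 1 hr IL-4 (x axis) and after 24 hr IL-4 (y axis), log2, for 9570 genes, each against the controls of its own experiment, with the 496 genes whose changes differ by limma in colour. The cloud follows neither the diagonal nor its mirror, with r of 0.06 over the 12421 genes of the fit.

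The labelled cell type was checked by its markers. Of 22 genes of macrophage identity, 21 had a peak, 0 of 21 tested were called, and their summed score was 613 and 643 in the controls and 550 and 559 after IL-4. Csf1r, the MCSF receptor, had 91.8 and 96.8 against 94.8 and 76.6. Peaks were listed at few markers of other cells: 3 of 8 for T cells (Cd3e, Cd3g, Cd4, Cd8a and Trac had none), 2 of 6 for B cells, 2 of 6 for NK cells, 3 of 10 for neutrophils and their progenitors, 2 of 6 for dendritic cells, 1 of 8 for mast cells, basophils and eosinophils, 2 of 8 for fibroblasts and endothelium and 2 of 8 for erythroid cells and megakaryocytes.

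Among these markers 1 was called: Klrb1c, a receptor of NK cells, rose from 5.16 and 4.62 to 26.2 and 28.6 (2.43 ± 0.47, limma adjusted p = 0.0223), with a region at its start that went from no peak to 20.1 and 19.4. Ncr1, Prf1, Gzmb and Eomes, which define NK cells, had no peak in any of the 4 samples. The T cell list had summed scores of 49.0 and 39.5 in the controls and 21.6 and 26.3 after IL-4. Whether other cells took part in any change was not tested, and in bulk chromatin fewer cells of a type and less polymerase per cell cannot be told apart.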

How the data were processed

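RNAPII-pS5 ChIP used antibody ab5131 on BMDMs crosslinked with DSG and formaldehyde. The authors aligned reads to mm10 and called peaks per sample, and the submitters' processing notes name BWA 0.7.10, SAMtools 0.1.19, HOMER 4.2 and MACS2 2.0.10. The deposited peak scores are taken as −log10 of a p or q value: the stated q-value cut-off corresponds to a score of 2, and under 0.1% of the peaks in each RNAPII-pS5 sample lie below it. The deposited H3K27Ac lists hold signal values (HOMER tag counts), of which positions alone were used. Depth is unknown, so no counting interval can be given, and the number of peaks stands in for it. The authors' comparison on reads was not repeated here.

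A peak's gene and class are those of the authors' HOMER annotation (nearest start site). Gene scores are sums over peaks outside intergenic space, with missing peaks at the lowest score of the 8 lists (1.44; RNAPII-pS2, 1.39). Log2 values were centred per sample on the median of genes with a peak in all 8 samples and fitted with limma 3.58.1 (R 4.3.3, trended empirical Bayes). Each fit took the 8 samples of an antibody in the pretreatment experiment, those with LPS included, or 12 RNAPII-pS5 samples for 24 hr against 1 hr. Testing was limited to genes or regions whose peak was listed in 2 or more of the 4 samples, with Benjamini-Hochberg adjustment over all of them and a threshold of 0.05. Regions are peaks of the 8 lists merged at 1 bp of overlap (bedtools 2.31.1), with the highest score per sample. The calculations were tested on simulated data.

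Genes named are, by rule, list members that passed and up to 4 that did not, the 15 largest increases and decreases with a peak in all 4 samples, the 10 highest genes found in 1 group alone in each direction, 8 regions outside promoters in each direction, the 8 genes per direction with the smallest adjusted p between 24 hr and 1 hr, and genes the study discusses. The 15 largest in each direction had to be called and to change the same way in all 4 pairs of an IL-4 sample and a control. The members and lists were chosen with earlier results of these data known. Of 429 list genes, 387 were found, 6 under an older symbol, and 1 further gene is not reported here. Replicate numbers do not pair the samples. Replicates of a group shared no identical peak. Alternatives covered the threshold, floor, scaling, filters, peak class, sample set, replicate block and assignment of regions.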

Additional observations from a re-analysis of the deposited data

Results flagged for a closer look

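The difference between the 24 hr and the 1 hr change of RNAPII-pS5 (log2, limma interaction term, adjusted p of at most 0.05) set the following genes apart, the 8 with the smallest adjusted p in each direction. The 24 hr change exceeded the 1 hr change by 9.98 for R3hdm4, 6.03 for Ppwd1, 6.05 for AV051173, 5.68 for Capn9, 5.29 for Oas1c, 5.11 for 4833439L19Rik, 5.33 for Ear11 and 6.10 for Mamld1. It was below the 1 hr change, with a difference of −9.83 for Kiss1r, −6.93 for Prdx1, −5.88 for Rpusd4, −6.71 for Exoc3l4, −4.86 for Poll, −5.04 for Banf1, −4.56 for Acsl3 and −5.38 for Rpl18. With each merged region given to 1 gene, an alternative chosen after seeing the data, the call was kept for Capn9, 4833439L19Rik, Ear11 (2.95) and Mamld1 and lost for R3hdm4, Ppwd1, Oas1c, Prdx1, Rpusd4, Acsl3 and Rpl18, and the other genes gave no value there. The experiments of 1 hr and 24 hr had their own controls and differed in number of peaks (30420 to 35424 against 19279 to 22149), so time and experiment cannot be told apart.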

How the results depend on the processing

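Main counts were 497 genes higher and 386 lower, 2909 and 2142 regions, 639 genes whose 24 hr and 1 hr changes differ, and 986 and 890 genes in RNAPII-pS2. At an adjusted p of at most 0.1 they were 751 and 626 genes and 1015 for the difference, and at an unadjusted p of at most 0.05 1150 and 1018 genes, 3217 regions lower, 2088 for the difference and 1608 and 1691 in RNAPII-pS2. Refitted to features with a peak in all samples compared they were 35 and 34 genes, 87 and 72 regions, 22 for the difference and 436 and 257 in RNAPII-pS2. Counted in the same fit for a peak in all 4 samples, chosen after seeing the data, they were 87 and 92 genes and 337 and 318 regions. Fits to the 4 samples alone gave 0 and 0 genes, and 625 and 430 in RNAPII-pS2. Promoter peaks alone gave 217 and 228 genes, and with intergenic peaks 758 genes were higher. A floor 4 times as high left 1018 and 975 regions. The upper 50% of peaks left 1488 and 1130 regions, 1704 found only after IL-4 and 1182 only in the controls.

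Leaving out 1 replicate, where the lone sample is assumed to vary like the other groups, gave 8 to 258 genes higher and 5 to 235 lower, 114 to 2394 and 138 to 1883 regions, 407 to 704 for the difference, 219 to 610 and 93 to 490 in RNAPII-pS2, and 3762 to 5700 regions found only after IL-4 and 2815 to 4280 only in the controls. Of 87 called genes named here, 27, 17, 18 and 28 kept their call without control replicate 1, control replicate 2, IL-4 replicate 1 and IL-4 replicate 2, 0 in the fit to the 4 samples alone, 81 on ranks, 85 without centring and 85 with each merged region given to 1 gene.

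Estimates reversed with intergenic peaks for Bcl6 (−0.46), Csf1 (1.54), Edn1 (−0.12) and Mcm5 (0.68), and with promoter peaks alone for Ccl7 (−1.65), Klf9 (−2.11), Nfkbie (0.62) and Socs1 (−2.72). In both cases other peaks are summed. The deviations of samples with the same replicate number correlated with r of −0.00658 over regions and −0.0178 over genes, so the numbers give no pairing. With the replicate block the counts were 390 and 319 genes, 2745 and 1977 regions, 459 for the difference, and 907 and 782 in RNAPII-pS2, with 72 of the 87 named calls kept. The causes of the other shifts were not tested.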

Other observations

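Tex14, a gene of intercellular bridges in germ cells, had the highest scores and the smallest adjusted p of any gene and was singled out after its values were seen. Its summed scores were 549.9 and 527.3 in the controls and 938.0 and 982.7 after 24 hr IL-4, a log2 change of 0.77 ± 0.03 (limma adjusted p = 0.000267). In RNAPII-pS2 it was also higher (0.70 ± 0.06, limma adjusted p = 0.00112), and after 1 hr of IL-4 its change was 0.07 ± 0.09.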
